A study of Arabidopsis thaliana with 12 samples.

Results

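The comparison described here is the interaction of growth condition and SNF4 silencing in Arabidopsis thaliana seedlings, which asks whether loss of SNF4 changed a transcript differently in light-grown and in dark-grown plants. It used all 12 of the 12 arrays of the study, in 4 groups of 3 replicates. The groups were light-grown amiR-SNF4, light-grown wild type, dark-grown amiR-SNF4 and dark-grown wild type, and RNA came from whole seedlings. For each gene the silencing effect was the mean log2 signal of amiR-SNF4 minus that of wild type within a growth condition. The difference, the quantity followed throughout, was the effect in light minus the effect in darkness.

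All plants were of the Col-0 background. The amiR-SNF4 line carries an artificial microRNA against SNF4 under an estradiol-inducible system, and both genotypes received 5 µM β-estradiol, so every group shared the inducer. Medium held 0.5% sucrose and the temperature was 22 °C. A regime of 8 h of light and 16 h of dark was written on all 12 samples, the dark-grown ones included, with an intensity of 120, against 400 in the description of the series. The dark-grown groups are taken as grown in darkness from their titles. Seedlings were collected 5 days after germination and 4 h into the light period, and the labels of the light-grown samples also gave 7 days after sowing. No array of an uninduced line or of another transgenic line was analysed here, so effects of the transgene and of silencing cannot be told apart. No probe set analysed here named SNF4, and the loss of its transcript was not checked. Replicates were called biological, but separate cultures were not stated. A p-value here thus measures only the spread among the 3 samples of a group, which may be technical.

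SNF4 encodes the activating subunit of SnRK1, the plant relative of yeast Snf1 and animal AMPK. This kinase is engaged when cellular energy runs low, and it then favours breakdown of reserves over growth. Seedlings raised in darkness follow a separate programme from light-grown ones. They elongate the hypocotyl, draw on stored or supplied carbon, and hold back chloroplast development until light arrives.

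Array medians of the deposited intensities ran from 39.4 to 99.5 before normalization. Light-grown groups varied less than dark-grown ones. The median SD within a group was 0.146 for amiR-SNF4 and 0.160 for wild type in light, and 0.245 for amiR-SNF4 and 0.232 for wild type in darkness, and the fit used 1 spread per gene for all 4 groups. Markers listed for organs were few on the analysed part of the array, with 2 for root cells, 3 for the stomatal lineage and 1 for the shoot meristem, none of them called for the difference, and 7 for seed storage and late embryogenesis. In the seed list AT2G46140 alone was called, beside 7.99% of all genes. AT2G46140 had effects of 0.11 in light and 1.16 in darkness, and its call was lost with any 1 of 9 arrays left out (adjusted p up to 0.0952). Summed intensity of the root markers in light spanned 64.7 to 83.0 in amiR-SNF4, against 90.9 to 142 in wild type. In darkness it spanned 21.7 to 25.5 in amiR-SNF4, against 52.9 to 78.7 in wild type. The summed signal of these 2 root markers was therefore lower in amiR-SNF4 in both conditions, without overlap. Over all genes, the genotypes did not overlap for 40.4% in light and 37% in darkness. By the fit, neither marker had a called fall in light and 1 had in darkness. The part of root marker signal in the results was not tested. In whole seedlings, fewer cells of a type and less RNA per cell cannot be told apart.

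Silencing acted differently in light and darkness on 1067 of 13355 genes, or 7.99% of those tested (limma, Benjamini-Hochberg adjusted p under 0.05). The called difference was above 0 for 544 genes (4.07%), termed higher, and below 0 for 523 (3.92%), termed lower. A higher difference can come from a larger fall in darkness as well as from a larger rise in light. For 766 genes (5.74%) it reached 1 on the log2 scale, a 2-fold change of the fold change, with 387 higher (2.9%) and 379 lower (2.84%). Without normalization between arrays, 278 genes were called, 88 higher and 190 lower. Each effect by itself touched more genes. Silencing changed 2546 genes in light (19.1%), of which 9.14% of all genes rose and 9.93% fell, and 4113 in darkness (30.8%), where 14.3% rose and 16.5% fell. With array quality weights the order of the conditions turned, with 4074 genes in light and 3733 in darkness. The arrays of the genotypes did not overlap for 40.4% of all genes in light and 37% in darkness, the background for each statement below on overlap. Across genes, which are not independent replicates, the light and dark effects correlated at 0.719, and they share no array. The slope of light on dark effects was 0.545. Noise in the dark effects lowers such a slope, so it does not measure how much smaller light effects were. Genes called in darkness had smaller median effects in light, 0.51 against 0.96 where they rose and -0.44 against -0.86 where they fell. Genes called in light had similar medians, 1.01 in light and 1.07 in darkness for rises, -0.78 and -0.74 for falls. Choosing genes by an effect enlarges the median of that effect, so these medians do not measure how the conditions differ in size.

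**Figure D1:**
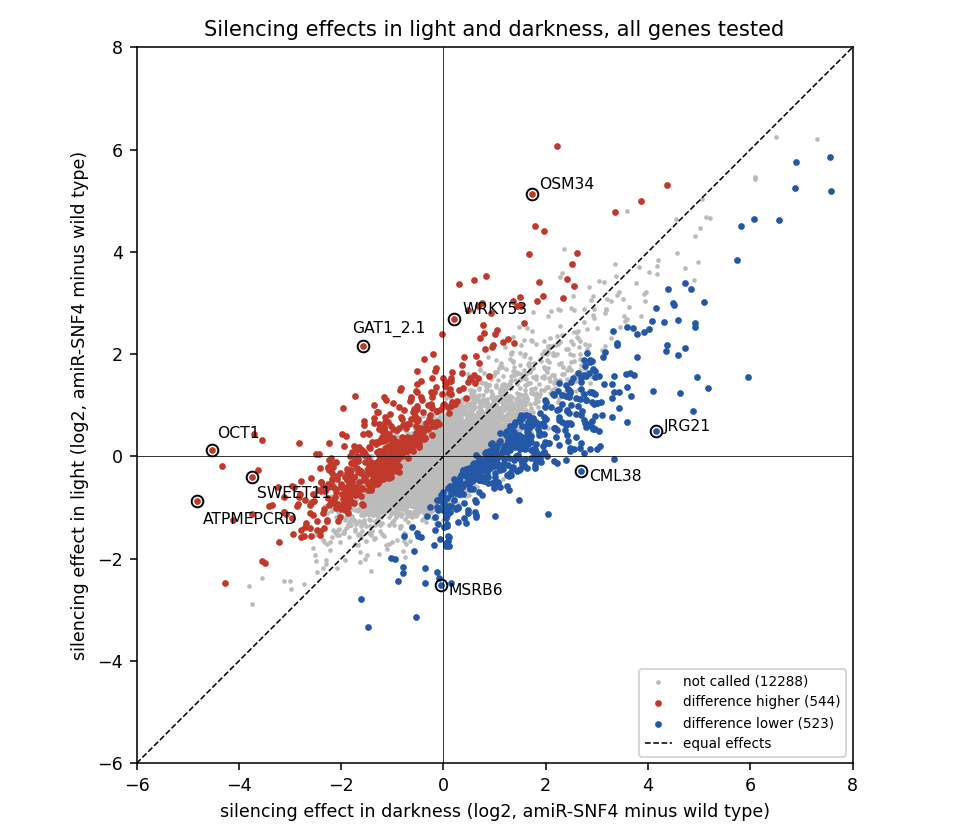
Silencing effect in light (vertical axis, log2) against that in darkness (horizontal axis, log2) for each of 13355 genes. Red and blue points are the 544 genes with a higher and the 523 with a lower difference, and the dashed line marks equal effects. The slope of light on dark effects was 0.545, which noise in the dark effects lowers.

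Most of the called genes responded more in darkness. Of the 1067, 824 (77.2%) had the larger effect in darkness and 243 had it in light. The same share over all genes was not counted, and the dark-grown groups varied more within a group. The most frequent pattern, with 265 genes, was a fall in darkness without a call in light. Next came 241 genes that rose in darkness without a call in light, and 164 that rose in both with the larger rise in darkness. A further 115 fell in both with the larger fall in darkness. Light-led patterns were fewer. Among them, 83 genes fell and 75 rose in light without a call in darkness, 43 rose more in light, and 11 fell more in light. Opposite changes, each called, were found for 56 genes, of which 38 rose in light and fell in darkness and 18 fell in light and rose in darkness. The remaining 14 genes had a called difference and neither effect called.

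**Figure D2:**
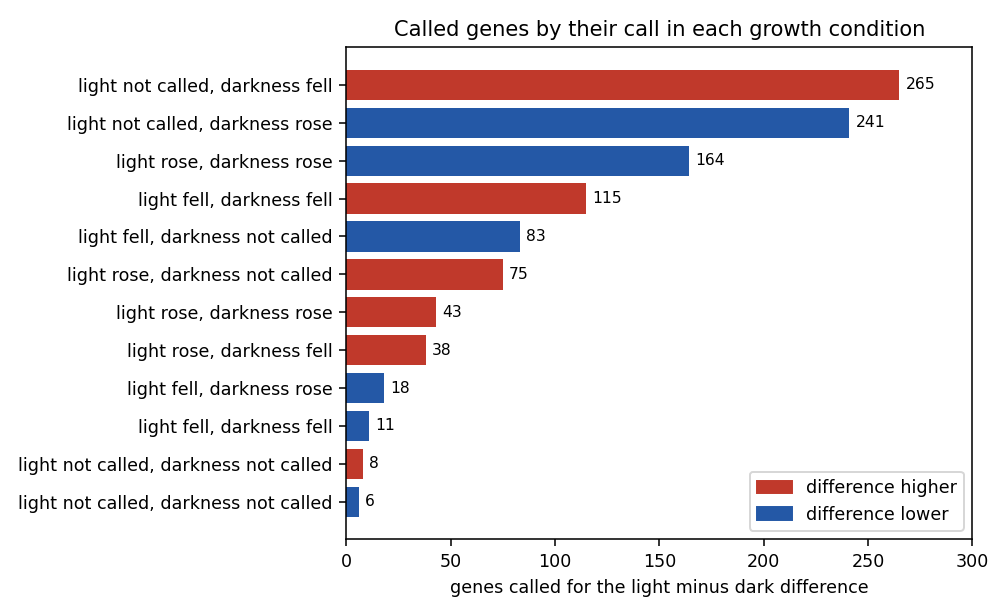
Number of genes called for the difference (horizontal axis) by their call in light and in darkness, red for a higher and blue for a lower difference. The 265 genes that fell in darkness alone and the 241 that rose in darkness alone make the longest bars.

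Another view of the same genes asks which of the 4 group means lay farthest from the mean of the other 3. It was dark-grown amiR-SNF4 for 419 of the 1067 genes, 286 above and 133 below, and dark-grown wild type for 405, 274 above and 131 below. Light-grown wild type stood apart for 146 genes, 83 above and 63 below, and light-grown amiR-SNF4 for 97, 74 above and 23 below. These counts were not made over all genes.

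The highest differences among bright genes included several genes that were brightest in dark-grown wild type. OCT1, an organic cation and carnitine transporter, had a log2 signal of 4.17, 4.26 and 4.11 in light-grown amiR-SNF4 and 4.07, 4.06 and 4.05 in light-grown wild type. It had 4.44, 4.31 and 4.31 in dark-grown amiR-SNF4 and 8.81, 8.70 and 9.10 in dark-grown wild type. Dark-grown wild type thus stood far above the other 3 groups, which were near the floor of 4 that the added constant sets. The difference was 4.64 ± 0.18 (SE, n = 3 arrays in each of 4 groups, adjusted p = 4.43e-08).

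ATPMEPCRD, named as a pectin methylesterase, had 6.30, 6.77 and 6.17 in light-grown amiR-SNF4 and 7.19, 7.29 and 7.38 in light-grown wild type. Its signal was 6.61, 6.92 and 6.83 in dark-grown amiR-SNF4, against 11.78, 11.39 and 11.62 in dark-grown wild type. It fell in both conditions, without overlap, by 0.87 in light and by 4.81 in darkness. The identifiers AT2G28780, AT1G12080 and AT4G16000, for which the annotation used here gave no name, were also brightest in dark-grown wild type, with no called effect in light and differences of 4.14, 4.15 and 3.87.

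Some sugar transporters also fell mainly in darkness. SWEET proteins move sugars across membranes down their gradient, and SWEET11 exports sucrose for loading into the phloem. Of 21 SWEET and vacuolar sugar transporters measured, 3 had a higher and 1 a lower difference, beside 4.07% higher and 3.92% lower over all genes, and the median difference was 0.31 beside -0.01. SWEET11 had 10.15, 10.08 and 10 in light-grown amiR-SNF4 and 10.43, 10.57 and 10.45 in light-grown wild type. In dark-grown plants it had 7.64, 8.38 and 8.36 in amiR-SNF4 and 12.01, 11.68 and 11.90 in wild type. The drop in darkness to 0.0749 of the wild type level had no called counterpart in light, and the difference was 3.33 ± 0.26 (SE, adjusted p = 1.24e-05). SWEET3 fell by 2.39 in darkness, with an effect of -0.49 in light, and SWEET1 fell by 0.97 in darkness, with 0.06 in light. SWEET2, a vacuolar member, went the other way, with -0.47 in light and a rise of 0.80 in darkness. The SWEET1 difference of 1.03 lost its call with any 1 of 4 arrays left out (adjusted p up to 0.0673).

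Auxin genes with a called difference had either a called fall in darkness or a called rise in light. Of 22 genes of auxin synthesis, signalling and conjugation, 4 had a higher difference and none a lower one, beside 4.07% and 3.92% of all genes. The median effect was 0.06 in light and -0.26 in darkness, beside -0.03 in each over all genes. HAT2, an auxin-induced homeodomain factor, had 7.47, 7.63 and 7.61 in light-grown amiR-SNF4 and 6.99, 7.26 and 7.13 in light-grown wild type. In dark-grown plants it had 7.27, 7.73 and 7.25 in amiR-SNF4 and 8.90, 8.93 and 8.80 in wild type. The genotypes did not overlap in either condition and lay in opposite order, although the light effect of 0.44 did not pass the test (adjusted p = 0.055). The difference was 1.90 ± 0.21 (SE, adjusted p = 0.000131).

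IAA29, an Aux/IAA repressor, had 5.75, 5.94 and 5.61 in light-grown amiR-SNF4 and 5.63, 5.69 and 5.61 in light-grown wild type. It had 5.25, 5.99 and 5.74 in dark-grown amiR-SNF4, against 7.13, 7.72 and 7.21 in dark-grown wild type. The light groups overlapped and the dark groups did not. WAG2, a kinase that acts on auxin efflux carriers, fell by 1.14 in darkness, with 0.31 in light. WES1, which conjugates auxin to amino acids, instead rose by 1.17 in light, with -0.44 in darkness. Without normalization between arrays, 1 of these 4 auxin genes, WES1, was still called.

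Cell wall genes were split. Expansins loosen walls, xyloglucan endotransglucosylases cut and rejoin wall polymers, and GH9 enzymes cleave glucan chains. Of 44 such genes, 6 had a higher and 4 a lower difference, 22.7% of the list beside 7.99% of all genes, and the median was 0.10 beside -0.01. EXPA8 had 5.92, 5.89 and 5.67 in light-grown amiR-SNF4 and 6.45, 6.75 and 6.45 in light-grown wild type. It had 5.89, 6.40 and 6.38 in dark-grown amiR-SNF4, against 9.23, 9.09 and 8.73 in dark-grown wild type. It fell in both conditions, by 0.72 in light and by 2.80 in darkness. EXPA4 rose in both, to 8.23 times the wild type level in light and 2.57 times in darkness, and its difference was 1.68 ± 0.20 (SE, adjusted p = 0.000271). EXPA16 rose by 1.42 in light and fell by 0.53 in darkness.

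The reverse held for XTH32, which had 7.87, 7.55 and 7.74 in light-grown amiR-SNF4 and 8.40, 8.51 and 8.80 in light-grown wild type. It had 7.68, 8.18 and 7.96 in dark-grown amiR-SNF4 and 6.63, 6.55 and 6.21 in dark-grown wild type. Silencing thus lowered it in light and raised it in darkness, without overlap, and the difference was -2.33 ± 0.25 (SE, adjusted p = 9.44e-05). XTH26, seen above the floor in light-grown wild type alone, fell by 1.31 in light. XTH16 fell by 1.99 in light and by 1.03 in darkness. Of 4 listed pectin enzymes, PMEPCRF and PME61 had a higher difference, beside 4.07% of all genes. Each rose in light, by 1.29 and 0.91, and fell in darkness, by 0.54 and 0.77. The list does not hold ATPMEPCRD, which fell in both conditions, by 0.87 in light and by 4.81 in darkness. Over the alternative settings, between 4 and 12 of the 44 expansin, xyloglucan and GH9 genes were called, the fewest without normalization.

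**Figure D3:**
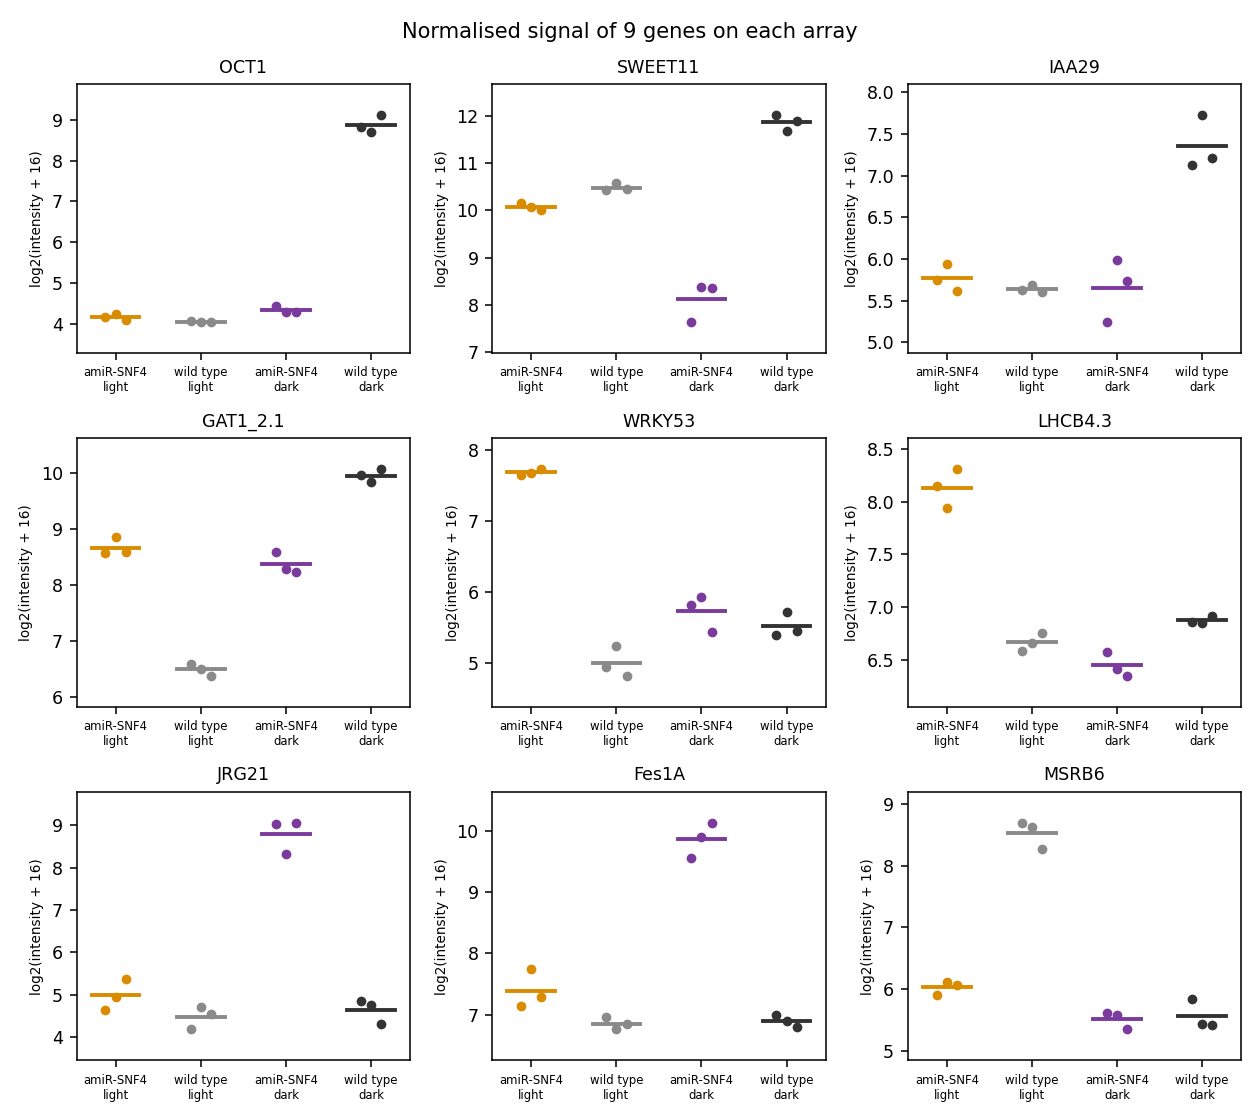
Normalised log2(intensity + 16) on each array for 9 genes, with a bar at each group mean, from left to right light-grown amiR-SNF4, light-grown wild type, dark-grown amiR-SNF4 and dark-grown wild type. OCT1, SWEET11 and IAA29 are high in dark-grown wild type, WRKY53 and LHCB4.3 in light-grown amiR-SNF4, JRG21 and Fes1A in dark-grown amiR-SNF4, and MSRB6 in light-grown wild type.

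GAT1_2.1, a glutamine amidotransferase, turned direction with the growth condition. It had 8.57, 8.85 and 8.58 in light-grown amiR-SNF4 and 6.60, 6.50 and 6.38 in light-grown wild type. It had 8.59, 8.28 and 8.23 in dark-grown amiR-SNF4 and 9.95, 9.83 and 10.06 in dark-grown wild type. The amiR-SNF4 arrays of both conditions lay within the range 8.23 to 8.85, between the light-grown and the dark-grown wild type. It rose 4.50-fold in light and fell to 0.335 of wild type in darkness, and the difference was 3.75 ± 0.20 (SE, adjusted p = 1.05e-06).

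Of 25 defence and immune signalling genes, 15 rose and 1 fell in light, and 17 rose and 1 fell in darkness, beside 9.14% rising in light and 14.3% in darkness over all genes. Median effects were 1.33 in light and 1.25 in darkness. For the difference, 5 were higher and 7 lower, 48.0% of the list beside 7.99% of all genes, and the median was 0.07. These members were drawn up with the responses of defence genes in these data already known.

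OSM34, an osmotin of the PR-5 family of pathogenesis-related proteins, had 11.45, 11.61 and 11.55 in light-grown amiR-SNF4 and 6.90, 6.40 and 5.92 in light-grown wild type. It had 12.62, 12.36 and 12.86 in dark-grown amiR-SNF4 and 11.35, 10.78 and 10.52 in dark-grown wild type. The genotypes did not overlap in either condition, and dark-grown wild type was far brighter than light-grown wild type. The rise was 35.1-fold in light and 3.31-fold in darkness, and the difference was 3.40 ± 0.35 (SE, adjusted p = 8.33e-05). The light-led genes also included WRKY53, a transcription factor of leaf senescence and defence. WRKY53 had 7.64, 7.68 and 7.73 in light-grown amiR-SNF4 and 4.94, 5.24 and 4.82 in light-grown wild type. It had 5.82, 5.93 and 5.43 in dark-grown amiR-SNF4 and 5.39, 5.71 and 5.44 in dark-grown wild type. Light-grown amiR-SNF4 stood alone, with a 6.44-fold rise, while the dark groups overlapped.

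CML41, a calmodulin-like protein linked to closure of plasmodesmata, rose 7.65-fold in light and 2.69-fold in darkness. The ubiquitin ligase RING1 rose 13.5-fold in light and 5.71-fold in darkness, but its call was lost without light-grown amiR-SNF4 replicate 2 (difference 1.16, adjusted p = 0.0503). The fifth member with a higher difference was CHI, named as a chitinase. PDF2.1, a plant defensin, rose 10.9-fold in light, with 1.51-fold in darkness (not called). AT5G03350, unnamed in the annotation, rose 67.0-fold in light and 4.69-fold in darkness.

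The dark-led defence genes included SAG101, which works with EDS1 in immunity. SAG101 had 8.91, 9.01 and 9.0 in light-grown amiR-SNF4 and 6.40, 6.24 and 6.75 in light-grown wild type. It had 9.81, 9.62 and 9.53 in dark-grown amiR-SNF4 and 6.13, 5.93 and 5.79 in dark-grown wild type. The genotypes did not overlap in either condition. The rises were 2.51 in light and 3.70 in darkness on the log2 scale, and the difference was -1.19 ± 0.22 (SE, adjusted p = 0.00444). PUB22, a U-box ligase that damps immune signalling, rose 2.38-fold in darkness alone, and UGT74F1, outside that list and a glucosyltransferase of salicylate, rose 4.81-fold in darkness alone. The others with a lower difference were PUB23, BSMT1, AT3G13610, WRKY22 and WRKY6. Of these, WRKY22 was not dark-led, with a fall of 0.62 in light and an effect of 0.09 in darkness (not called). For WRKY6 the difference of -1.01 was lost with any 1 of 8 arrays left out (adjusted p up to 0.0826). The calls of PUB23, BSMT1, WRKY22 and CHI were each lost with at least 2 of the 12 arrays left out in turn. Of the 12 called genes of the defence list, 3 were still called without normalization, 5 with hybridization control scaling and 9 with an added constant of 1. With 1 array left out, between 7 and 13 were called.

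Of 8 calmodulin-like and calcium-binding proteins, 4 had a lower and 1 a higher difference, 62.5% of the list beside 7.99% of all genes. The larger effect was in darkness for 3 of these 5, beside 77.2% of all called genes. Median effects were 0.61 in light and 1.64 in darkness. CML38 had 5.45, 5.83 and 5.58 in light-grown amiR-SNF4 and 5.75, 6.25 and 5.71 in light-grown wild type. It had 7.77, 7.89 and 8.43 in dark-grown amiR-SNF4 and 5.77, 4.67 and 5.57 in dark-grown wild type. The light groups overlapped, and the difference was -2.98 ± 0.38 (SE, adjusted p = 0.000442). CML37 rose by 1.26 in light and by 3.33 in darkness on the log2 scale. JRG21, a jasmonate oxidase, had 4.63, 4.94 and 5.38 in light-grown amiR-SNF4 and 4.19, 4.71 and 4.56 in light-grown wild type. It had 9.02, 8.32 and 9.05 in dark-grown amiR-SNF4 and 4.85, 4.76 and 4.31 in dark-grown wild type. Its rise was 17.9-fold in darkness, with 1.42-fold in light (not called). AT2G38240, unnamed in the annotation, had the most negative difference among bright genes, -4.40 ± 0.34 (SE, adjusted p = 1.20e-05), with a 61.9-fold rise in darkness and a 2.93-fold rise in light.

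**Figure D4:**
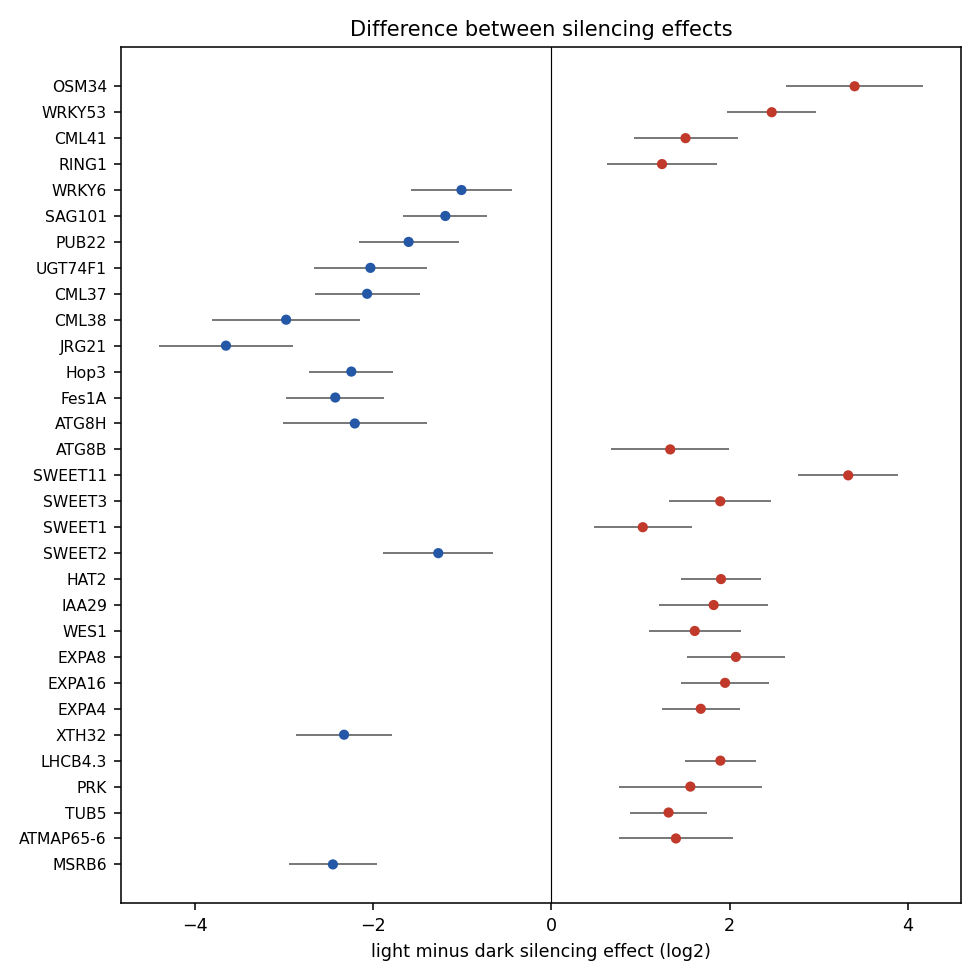
Difference between silencing effects, light minus dark (horizontal axis, log2), for 31 genes named in the text, with 95% confidence intervals from the fit. Red points lie above 0 and blue below. All 31 were picked from the called genes, so each interval leaves out 0 by that choice.

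The called cytosolic chaperones rose more in darkness. Of 13 chaperone and heat stress genes, 4 had a lower difference and none a higher one, beside 3.92% and 4.07% of all genes. Among the 13, 12 differences were below 0, beside 50.7% of all genes, and median effects were -0.09 in light and 0.63 in darkness. Fes1A, which assists HSP70 chaperones, had 7.15, 7.74 and 7.28 in light-grown amiR-SNF4 and 6.96, 6.76 and 6.84 in light-grown wild type. It had 9.55, 9.89 and 10.13 in dark-grown amiR-SNF4 and 7.00, 6.89 and 6.79 in dark-grown wild type. The dark rise was 7.80-fold, and the difference was -2.43 ± 0.25 (SE, adjusted p = 8.99e-05). Hop3, which links HSP70 and HSP90, rose 4.46-fold in darkness, with 0.939-fold in light (not called). In the endoplasmic reticulum, of 14 genes of ER stress and ER-associated degradation, 7 rose in light and 7 in darkness, with medians of 0.51 and 0.48. Over all genes 9.14% rose in light and 14.3% in darkness. ATERDJ3B alone had a called difference, -0.88, beside 7.99% called over all genes.

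Autophagy genes gave 1 call each way among 11, beside 7.99% called over all genes. ATG8 proteins coat the membrane of the forming autophagosome. ATG8H had 7.67, 8.30 and 8.03 in light-grown amiR-SNF4 and 7.40, 7.35 and 7.53 in light-grown wild type. It had 9.89, 10.73 and 10.45 in dark-grown amiR-SNF4 and 7.90, 7.84 and 6.99 in dark-grown wild type, a 6.87-fold rise without overlap. ATG8B did the opposite, with a 2.79-fold rise in light and 1.11-fold in darkness (not called). Neither call held with hybridization control scaling.

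Among 52 UDP-glycosyltransferases 7 were called (13.5%) and among 22 beta-glucosidases 3 (13.6%), all with a lower difference, beside 7.99% called and 3.92% lower over all genes. Over the 52, the median difference was 0.05, with 27 above 0 and 25 below. The larger effect was in darkness for 6 of the 7 and for all 3, beside 77.2% of all called genes. The exception was UGT85A4, which fell by 0.73 in light, with 0.31 in darkness (not called). BGLU28 had 4.92, 4.87 and 4.88 in light-grown amiR-SNF4 and 4.65, 4.65 and 5.05 in light-grown wild type. It had 8.04, 7.43 and 7.64 in dark-grown amiR-SNF4 and 5.18, 5.16 and 5.33 in dark-grown wild type. The light groups overlapped and the dark groups did not. BGLU25 rose 2.09-fold in light and 8.51-fold in darkness. GSTU25, a glutathione transferase, rose 2.22-fold in light and 9.85-fold in darkness, whereas GSTF4 fell in darkness, to 0.472 of wild type, with 1.15-fold in light. AER, which reduces reactive alkenals, rose 5.32-fold in darkness, and NDB2, an alternative NADH dehydrogenase of mitochondria, rose 3.28-fold in light and 7.59-fold in darkness. Among peroxidases, PRX52 rose in both, by 2.65 in light and by 4.09 in darkness on the log2 scale, and PRXR1 fell in darkness alone, to 0.186 of wild type.

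Falls that light-grown plants showed and dark-grown plants did not were led by MSRB6, a methionine sulfoxide reductase. MSRB6 had 5.91, 6.11 and 6.06 in light-grown amiR-SNF4 and 8.70, 8.63 and 8.27 in light-grown wild type. It had 5.61, 5.58 and 5.35 in dark-grown amiR-SNF4 and 5.84, 5.43 and 5.42 in dark-grown wild type. Light-grown wild type stood well above the other groups, and the difference was -2.46 ± 0.23 (SE, adjusted p = 3.97e-05). THI2.2, a thionin, fell to 0.220 of wild type in light, with 0.774 in darkness (not called).

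**Figure D5:**
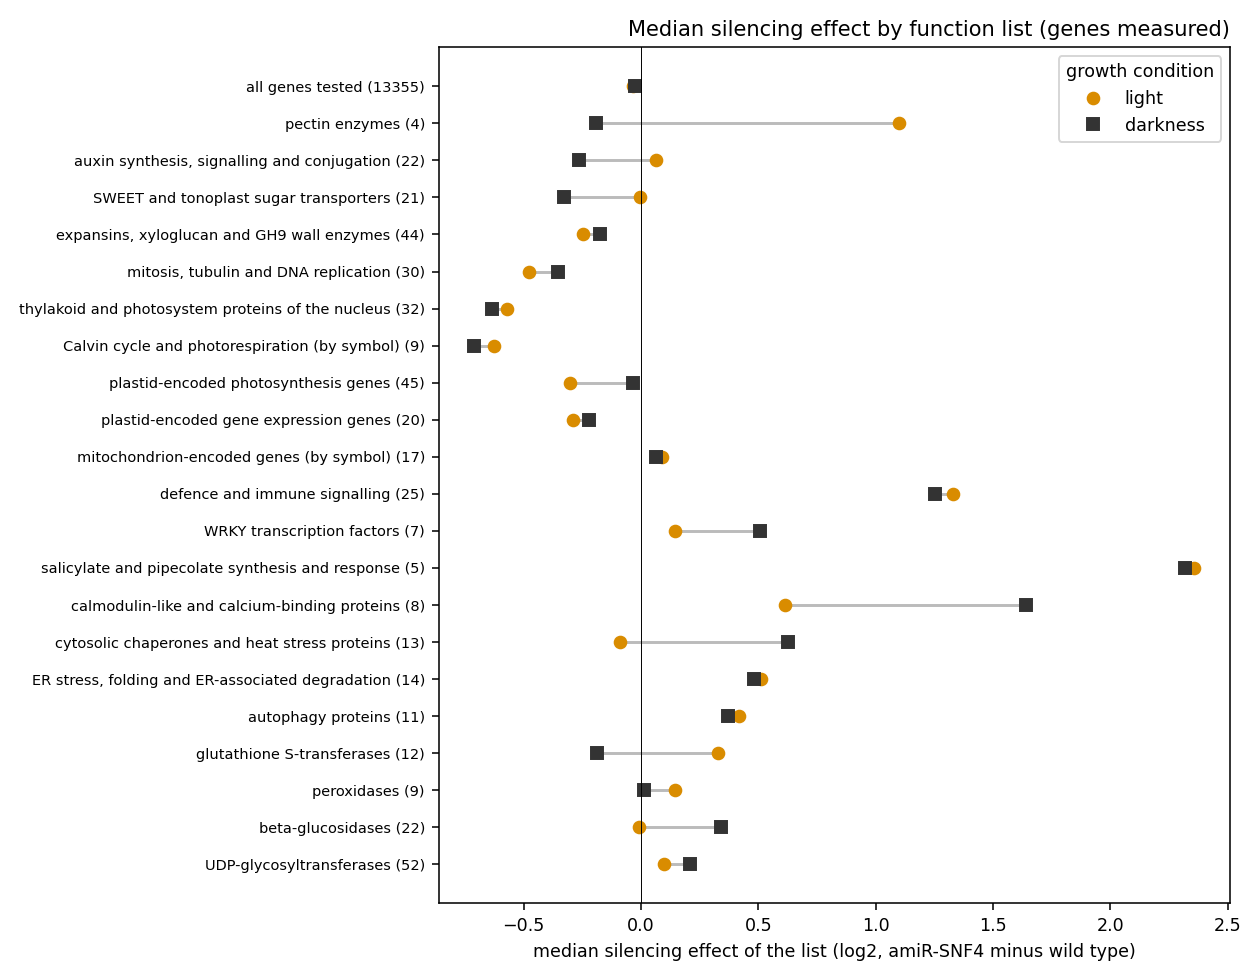
Median silencing effect (horizontal axis, log2) of 21 function lists and of all genes, in light (circles) and in darkness (squares), with the number of genes measured in brackets. Calmodulin-like proteins and cytosolic chaperones sit higher in darkness, the listed pectin enzymes higher in light, and defence genes at 1.33 in light and 1.25 in darkness. The pectin list does not hold ATPMEPCRD, which fell in both conditions.

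Of 32 nuclear thylakoid and photosystem genes, 13 fell and 1 rose in light and 22 fell in darkness, beside 9.93% falling in light and 16.5% in darkness over all genes. Median effects were -0.57 in light and -0.64 in darkness, and 23 of the 32 differences were above 0, beside 6589 of 13355 over all genes. Of the 32, 1 had a called difference, beside 7.99% of all genes. It was LHCB4.3, a minor antenna protein of photosystem II. LHCB4.3 had 8.15, 7.94 and 8.31 in light-grown amiR-SNF4 and 6.58, 6.66 and 6.75 in light-grown wild type. It had 6.58, 6.41 and 6.35 in dark-grown amiR-SNF4 and 6.86, 6.85 and 6.92 in dark-grown wild type. It rose 2.77-fold in light and fell to 0.742 of wild type in darkness. Its relatives LHCB4.1 and LHCB4.2 had effects of -0.28 and -1.03 in light and of -0.82 and -2.15 in darkness. Their differences, 0.55 and 1.12, were also above 0 but not called, although LHCB4.2 was called in 7 of 12 alternative settings. Over those settings, between 1 and 5 of the 32 genes were called. Of 9 Calvin cycle and photorespiration genes, PRK, phosphoribulokinase, was called, beside 7.99% of all genes. It fell by 2.15 in darkness, with -0.59 in light. The PRK call was lost without dark-grown wild type replicate 2, light-grown wild type replicate 3 or light-grown amiR-SNF4 replicate 1 (adjusted p up to 0.0585) and without normalization.

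None of 45 plastid-encoded photosynthesis genes, 20 plastid-encoded gene expression genes or 17 mitochondrion-encoded genes was called for the difference by limma. Over all genes 7.99% were called, a share that comes to few genes in lists of 20 and 17. The median differences of the lists, in the same order, were -0.24, -0.08 and 0.07. Unadjusted p was under 0.05 for 3 of the 45, 0 of the 20 and 2 of the 17, and this was not counted over all genes. psbA, the D1 protein of photosystem II, had the smallest p among the plastid photosynthesis genes, with effects of -0.87 in light and 0.08 in darkness and a difference of -0.95 (95% interval -1.72 to -0.18, adjusted p = 0.136).

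Of 30 genes of mitosis, tubulin and DNA replication, 13 fell in light and 12 in darkness, beside 9.93% in light and 16.5% in darkness over all genes. For the difference, 3 were higher and 1 lower, 13.3% of the list beside 7.99% of all genes. TUB5, a beta tubulin, had 8.85, 8.80 and 8.56 in light-grown amiR-SNF4 and 9.96, 10.20 and 10.19 in light-grown wild type. It had 7.44, 7.66 and 7.56 in dark-grown amiR-SNF4 and 10.30, 10.06 and 10.39 in dark-grown wild type. Signal fell to 0.384 of wild type in light and 0.154 in darkness, without overlap in either. ATMAP65-6, a microtubule-bundling protein, fell to 0.453 in light and 0.172 in darkness, and TUB6 was the third gene with a higher difference. BUB3.1, a spindle checkpoint protein, had a lower difference, with a fall of 0.66 in light. Without normalization none of the 4 was called, and with hybridization control scaling 1 was.

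Of 6 measured genes listed as SnRK1 subunits or relatives, AT1G15330 alone was called, beside 7.99% of all genes. AT1G15330 had 0.20 in light, -0.73 in darkness and a difference of 0.92. AKINBETA1, a scaffold subunit of the kinase, had 8.42, 8.56 and 8.22 in light-grown amiR-SNF4 and 9.37, 9.40 and 9.30 in light-grown wild type. It had 8.90, 9.62 and 9.15 in dark-grown amiR-SNF4 and 10.90, 11.01 and 11.02 in dark-grown wild type. It fell in both conditions without overlap, by 0.96 in light and by 1.75 in darkness, and the difference of 0.79 did not pass the test (95% interval 0.27 to 1.31, adjusted p = 0.0654). The AT1G15330 call was lost with any 1 of 5 arrays left out (adjusted p up to 0.0675).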

How the data were processed

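The deposited values were linear intensities of Affymetrix ATH1 arrays. GCOS, the array software, is named in the submitters' processing notes without a version, and scaling is not given in the sources used here. Groups and replicate numbers came from the sample titles. The 64 control probe sets were set aside and the other 22746 were quantile-normalized on the log2 scale. The value log2(intensity + 16) was then taken, on which changes of dim genes are understated. Detection calls were not used here, and the number of arrays limits the precision.

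Of these probe sets, 13513 named 1 gene in the platform annotation, 503 named several and 8730 were unnamed here. Keeping the probe set with the highest mean over the arrays left 13355 genes. Names were looked up in RefSeq genes of TAIR10.1, where 13285 matched. A symbol other than the identifier was available for 1557 genes and for 165 of the 1067 called. Genes without one are printed by identifier.

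The fit (lmFit, eBayes; limma 3.58.1, R 4.3.3) took all 12 arrays, and p-values were adjusted over all genes. Errors are standard errors of the fit. On simulated arrays of 13355 genes, the test of the difference found 83.3% of genes given a log2 change of 2. The share was 31.3% for a change of 1 and 5.97% for 0.5. The changed genes were drawn only from those above a set brightness, so recovery among dim genes was not simulated. Every group had the same spread per gene, although the dark-grown groups varied more.

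The comparison, lists and genes were chosen with earlier results of these data known. Of 55 lists planned by keyword or identifier, 26 had at least 3 measured members and 15 had none, and 37 more were drawn from gene names once the annotation had been seen. The naming rule took the 10 most positive and 10 most negative called differences among genes with a group mean of at least 7, the 3 called genes of smallest adjusted p in each of 9 classes of light and dark call, up to 3 called members of each list by adjusted p (the member of smallest p where none was called; added lists included), and the SnRK1 subunits. It gave 142 genes, 112 of them called. Of these, 58 are printed, mostly genes with a symbol, and this selection was made after their values were seen. A further 21 genes fall outside the rule and were also chosen after their values were seen. They are SWEET1, WAG2, EXPA8, XTH26, XTH16, CML41, CHI, AT3G13610, LHCB4.1, LHCB4.2, TUB6 and the genes of the last part of the text. A planned search for promoter motifs was not run, since no sequence was at hand. Alternatives covered normalization, the added constant, a filter on dim genes, probe set choice, the variance model, array weights, a replicate block and leaving out each array. Same-numbered arrays of different groups did not deviate together (correlations from -0.33 to 0.20), so the numbers were not taken to pair the arrays.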

Additional observations from a re-analysis of the deposited data

Results flagged for a closer look

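The silencing effect differed between light and darkness, by the test of the difference itself, for 1067 genes, and the named genes among them are given with that difference, light minus dark on the log2 scale. Differences were highest for OCT1 (4.64), AT1G12080 (4.15), AT2G28780 (4.14), ATPMEPCRD (3.94), AT4G16000 (3.87), AT5G03350 (3.84), GAT1_2.1 (3.75), OSM34 (3.40), SWEET11 (3.33) and PDF2.1 (2.86). Next among higher differences came WRKY53 (2.47), PRXR1 (2.47), ATSBT5.2 (2.31), EXPA8 (2.07), EXPA16 (1.95), HAT2 (1.90), LHCB4.3 (1.90), SWEET3 (1.90), PMEPCRF (1.83) and IAA29 (1.82). Smaller ones were found for PME61 (1.68), EXPA4 (1.68), WES1 (1.61), PRK (1.56), BAT1 (1.53), CML41 (1.51), WAG2 (1.46), ATMAP65-6 (1.40), ATG8B (1.33) and TUB5 (1.31). The least were those of GSTF4 (1.28), RING1 (1.24), ACT11 (1.13), CHI (1.07), TUB6 (1.04), SWEET1 (1.03), GID1A (0.98), AT1G15330 (0.92) and TRM26 (0.83).

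On the lower side, differences were most negative for AT2G38240 (-4.40), JRG21 (-3.66), CML38 (-2.98), MSRB6 (-2.46), Fes1A (-2.43), BGLU28 (-2.37), XTH32 (-2.33), STZ (-2.30), Hop3 (-2.25) and SBT3.5 (-2.24). Then came ATG8H (-2.21), GSTU25 (-2.15), CML37 (-2.07), UGT74F1 (-2.03), BGLU25 (-2.03), AER (-1.99), THI2.2 (-1.82), ALPHA-VPE (-1.62), PUB22 (-1.60) and PRX52 (-1.43). Milder negative differences were those of XTH26 (-1.38), IQD22 (-1.34), SWEET2 (-1.27), NET2D (-1.23), NDB2 (-1.21), AT3G13610 (-1.21), SAG101 (-1.19), BSMT1 (-1.14), AT2G46140 (-1.05) and UGT85A4 (-1.04). The mildest belonged to WRKY6 (-1.01), XTH16 (-0.97), PUB23 (-0.95), BUB3.1 (-0.90), ATERDJ3B (-0.88) and WRKY22 (-0.71). Single arrays were checked by array quality weights and by leaving each out, and the test for an outlying value was not applied to groups of 3.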

How the results depend on the processing

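Without normalization between arrays, 278 genes were called for the difference, 88 higher and 190 lower, beside 544 and 523 with it, and the median difference of all genes shifted to -0.12. The silencing effect was then called for 1484 genes in light and 2284 in darkness. The larger effect was in darkness for 206 of the 278 called genes and in light for 72, and 9 were called in both conditions with opposite signs. Of the 278, 276 were among the 1067, with the same sign. Scaling to hybridization controls gave 386 genes, 207 higher and 179 lower, with 2524 called in darkness, and 246 dark-led, 140 light-led and 22 opposite. An added constant of 1 gave 637, 354 higher and 283 lower, with 498 dark-led, 139 light-led and 37 opposite. With array quality weights the light effect was called for 4074 genes, above 3733 in darkness, which turns the order of the conditions, and the opposite class held 100. These weights ran from 0.369 for dark-grown amiR-SNF4 replicate 1 to 2.27 for light-grown wild type replicate 2. The cause of these shifts was not tested. Median scaling gave 1021 genes, cyclic loess 1081, a constant of 64 1343, the filter on dim genes 1118 and the intensity trend 1120.

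With the replicate number as a block, 904 genes were called, 872 of them shared with the 1067 in the same direction. That number is shared by label only.

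With 1 array left out in turn, between 744 and 1129 genes were called, 393 to 604 higher and 351 to 537 lower. The silencing effect was called for 1866 to 2848 genes in light and 3503 to 3957 in darkness. Dark-led genes numbered 565 to 873, light-led 171 to 256 and opposite ones 34 to 76. The opposite class was 34 without light-grown wild type replicate 2, and 35 and 37 without light-grown amiR-SNF4 replicates 2 and 3. Of the 75 called genes named in the text, 63 were called with each array left out and 39 in every alternative run. Normalization was the setting that cost most of them, with 32 not called without it and 27 under control scaling. None of the 112 called genes of the naming rule changed sign in any setting run, while 6 of its uncalled genes did. The low signal of dim genes limits their differences, since the added constant compresses them.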

Other observations

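Beyond the function lists, 64 annotated genes were called for the difference, 35 higher and 29 lower, and the examples here were chosen after their values were seen. The cytoskeleton genes picked here went either way, and they do not give the balance of all called ones. ACT11, an actin, had 5.65, 5.70 and 5.40 in light-grown amiR-SNF4 and 6.22, 6.19 and 6.12 in light-grown wild type. It had 5.50, 5.41 and 5.27 in dark-grown amiR-SNF4, against 7.25, 7.08 and 7.01 in dark-grown wild type, and its difference was 1.13 ± 0.18 (SE, adjusted p = 0.00213). TRM26, named for its recruitment to a microtubule-organising complex, fell by 0.59 in light and by 1.42 in darkness. IQD22 and NET2D, whose families associate with the cytoskeleton, were called the other way, with 1.11 and 1.64 in darkness and -0.23 and 0.41 in light. Another called member of the IQD family had a higher difference, 0.90, with -1.25 in darkness and -0.35 in light. The NET2D call was lost without light-grown wild type replicate 3 or light-grown amiR-SNF4 replicate 1 (adjusted p up to 0.0579). The calls of ACT11 and TRM26 were lost without normalization between arrays and with hybridization control scaling.

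Both hormone genes named here had the more negative effect in darkness. GID1A, a gibberellin receptor, had effects of -0.38 in light and -1.36 in darkness, and BAT1, an acyltransferase acting on brassinosteroids, had -1.68 in light and -3.21 in darkness. STZ, a zinc-finger repressor of stress responses, had 8.17, 8.28 and 8.06 in light-grown amiR-SNF4 and 7.44, 7.85 and 6.82 in light-grown wild type. It had 9.66, 9.72 and 9.72 in dark-grown amiR-SNF4 and 6.93, 6.29 and 6.56 in dark-grown wild type, an 8.60-fold rise. The protease genes SBT3.5 and ALPHA-VPE had effects of 1.35 and 0.56 in light and of 3.59 and 2.18 in darkness. Another subtilase, ATSBT5.2, fell in both, by 0.80 in light and by 3.11 in darkness. A fit over all 22746 non-control probe sets, those of the analysed genes included, called 2364, of which 1198 were higher and 1166 lower. Of the 2364, 1180 were the probe sets kept for the 13355 analysed genes. The remaining probe sets, not described above, were thus called at a higher share.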
